A study of Mus musculus with 6 samples.

Results

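The outer segment of a rod or cone is a modified cilium packed with membrane discs, and the genes described here build that structure and the matrix around it. They are 9 of the 19401 genes that the deposited files list, chosen by symbol and by role and not by their values: Prph2 and Rom1 (disc rims), Prom1 and Cdhr1 (growing discs), Prcd (disc membrane), Rp1 and Fscn2 (axoneme and actin), and Impg1 and Impg2 (interphotoreceptor matrix). Retinal RNA was compared between control and efavirenz (EFV)-treated 5XFAD mice, a model of Alzheimer's disease that is hemizygous for transgenes of mutant human amyloid precursor protein and presenilin 1 on the B6SJL background (F1 animals). EFV, an anti-HIV drug, was given in drinking water with a trace of Tween 80 from 3 to 9 months of age at 0.08 mg/kg of body weight according to the sample labels (the study's methods give a slightly higher daily dose), and control mice drank the same water without EFV. All mice were 9 months old, were described by the study as male, carried the transgenes in both groups, and lacked the rd8 allele of Crb1 and the rd1 allele of Pde6b, either of which causes retinal degeneration by itself. Retinas with retinal pigment epithelium (RPE), 1 from each of 5 to 6 mice, were pooled for a library, and with 3 such libraries in each group the errors below are a spread between pools. No wild type retina was sequenced, so the levels describe the 5XFAD retina with and without EFV.

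Outer segments are renewed throughout life. New discs form at the base next to the connecting cilium, their rims are bent into hairpins by a pair of related tetraspanins, and the oldest discs are shed at the tip and engulfed by the RPE. Proteoglycans secreted by the photoreceptors fill the space between the outer segments and the RPE and hold both layers together. Mutations in most of these genes cause inherited retinal degeneration in people.

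None of the 9 genes differed between EFV-treated and control mice by more than the spread between pools. The log2 fold changes (EFV over control) lay between -0.05 for Rom1 and 0.12 for Impg2, with 5 genes higher and 4 lower, a split that became 6 and 3 when total counts were used for scaling and 9 and 0 when the summed counts of rod genes were used. Their median was 0.02, against 0.00 for all 15537 genes tested (0.0012 before rounding). In edgeR's quasi-likelihood test with Benjamini-Hochberg (BH) adjustment all 9 had an adjusted p of 0.999, and 0 of the 9 had an unadjusted p under 0.05. Among all genes 0 (0.0%) reached an adjusted p of 0.05 and 472 (3.04%) an unadjusted p of 0.05. The limits used by the study, here applied to edgeR, were a fold change of 1.07 or more together with an unadjusted p of 0.05, and 0 of the 9 genes and 3.01% of all genes passed them. The 3 EFV libraries overlapped the 3 control libraries for all 9 genes, whereas 8.14% of all genes showed no overlap (3.95% with EFV above and 4.18% with EFV below control). DESeq2 and limma also called 0 of the 9 at an adjusted p of 0.05, and a Poisson model, which counts sampling error but not the spread between pools, called 5 (Prph2, Rom1, Impg1, Impg2 and Rp1) and put only Impg2 past the study's limits.

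**Figure D1:**
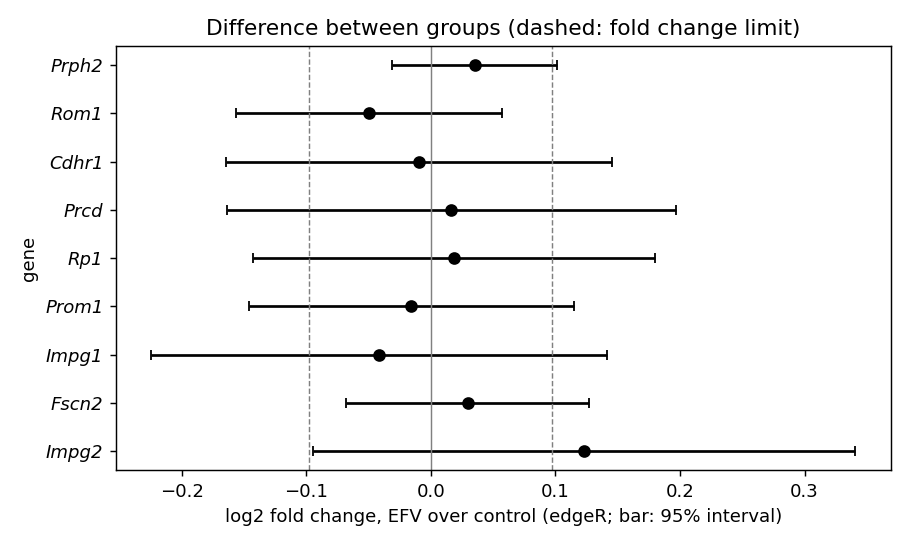
Log2 fold change of each gene between EFV-treated and control mice (horizontal axis, edgeR, 3 libraries per group), with genes in order of their mean FPKM on the vertical axis; bars are 95% confidence intervals and dashed lines the fold change limit of 1.07 in each direction. Every interval includes 0, and the widest are those of Impg2, from -0.09 to 0.34, and Impg1, from -0.22 to 0.14.

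These intervals give the size of change that the data still allow. For Prph2 the 95% interval ran from -2.11% to 7.27%, and for Fscn2 from -4.6% to 9.21%. For Impg2 it ran from -6.34% to 26.6%, the widest of the 9. The intervals of the other 6 genes stayed between -14.4% and 14.6%.

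The libraries held between 23455167 and 24590278 expected counts assigned to genes, and the 9 genes together took 1.2% to 1.28% of them. Markers of rods summed to 27850 to 28810 FPKM in control and 26530 to 28160 in EFV libraries, and markers of cones to 874.7 to 956.4 and 838.5 to 960.9, with all 10 markers of each list present in every library. Fewer photoreceptors and less RNA per photoreceptor cannot be told apart in such bulk samples. Control library 3 stood apart in 9 lens genes, whose summed FPKM was 2176 there (Cryaa, the highest, had 1341.41) and 19.66 to 108.4 in the other libraries. Control library 2 was low in RPE genes, with a sum over 11 markers of 24.64 FPKM against 46.99 to 60.99 in the others. The RPE genes were also higher in EFV-treated mice in all 10 markers tested (median log2 fold change of 0.50). Of these markers 3 were past the limits of the study, where 1.47% of all genes tested were in that direction. Kcnj13, a potassium channel of the RPE named after its values were seen, had 0.89, 0.81 and 1.12 FPKM in control libraries 1 to 3. It had 1.54, 1.48 and 1.31 in EFV libraries 1 to 3, so its groups did not overlap. The summed RPE markers did overlap, with 51.65 FPKM in control library 1 and 46.99 in EFV library 1. The part of control library 2 in the difference of the RPE genes was not tested. The part of the RPE in the values of the 9 genes was not tested. The lists for Müller cells (1138 to 1188 in control, 1124 to 1176 in EFV), bipolar cells (554.8 to 610.1 and 551.3 to 592.0), microglia (18.97 to 20.38 and 17.94 to 18.81) and oligodendrocytes (17.58 to 19.07 and 18.99 to 25.46) showed no library as far apart, although the microglia sums did not overlap between the groups.

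The level of a gene is given as FPKM, the number of fragments scaled to transcript length and to the library total, which allows genes to be compared with each other. The 9 genes covered a wide range, from a mean over the 6 libraries of 2186 for Prph2 down to 59.44 for Impg2. Prph2 ranked 8 and Rom1 17 among all genes of the files by mean FPKM. Cdhr1 followed with a mean of 342.4 (rank 89), Prcd with 262.1 (rank 134), Rp1 with 237.3 (rank 165), Prom1 with 163.2 (rank 274), Impg1 with 128.3 (rank 365), Fscn2 with 78.51 (rank 664) and Impg2 with 59.44 (rank 965). The order was the same in all 6 libraries with a single exception: Prcd was above Rp1 in 4 of 6 libraries, and the ranges of these neighbours overlapped. Every other pair of neighbours was separated by its full range, so that the lowest library of the higher gene lay above the highest library of the lower gene.

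**Figure D2:**
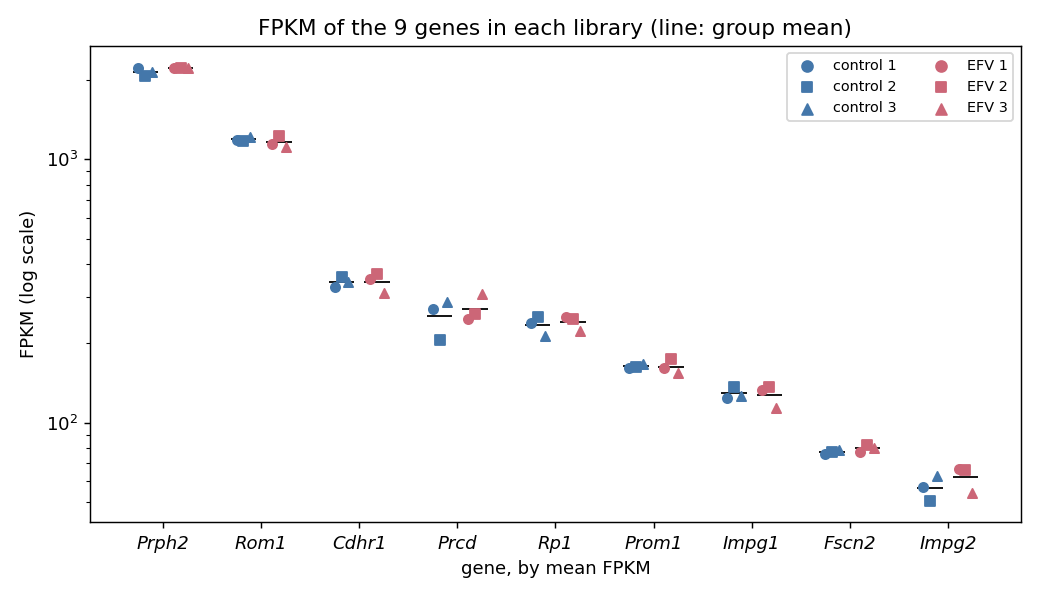
FPKM (vertical axis, log scale) of each gene in each library, control in blue and EFV in red, with a marker shape for each replicate number and a line at the group mean; genes are in order of mean FPKM. The steps between genes are large compared with the spread between libraries, except between Prcd and Rp1, and no gene separates the groups.

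The disc rim pair was the most abundant. Prph2 (Entrez 19133, mm10 chromosome 17 from 46910478 to 46924933) encodes peripherin-2, a tetraspanin that bends the disc membrane at the rim. Its FPKM was 2218.54, 2081.06 and 2141.74 in control libraries 1, 2 and 3 and 2225.97, 2233.47 and 2216.67 in EFV libraries 1, 2 and 3. The EFV libraries were close to each other (mean 2225 ± 8.42, SD, n = 3), and the control mean was 2147 ± 68.9 (SD, n = 3), with control library 2 the lowest and control library 1 at the level of the EFV libraries. EFV over control was 0.04 on the log2 scale (standard error 0.03). It was 0.019 without control library 2 and 0.0318 without control library 3. Without both it was -0.0018, in a fit that leaves only control library 1, the highest control library for Prph2. Control libraries 2 and 3 stood apart in RPE and lens genes, and the part of this in the values of Prph2 was not tested. Counting error was 0.271% of the level for this gene, which had 125808 to 140629 counts per library, so that most of the spread between control pools was not counting error.

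Rom1 (Entrez 19881, chromosome 19 from 8927382 to 8929356) encodes the second rim tetraspanin, which joins peripherin-2 in complexes. It reached 1181.17, 1179.22 and 1215.73 FPKM in control libraries 1 to 3 and 1148.89, 1231.80 and 1114.98 in EFV libraries 1 to 3. The EFV libraries held both the highest and the lowest value, and the group means were 1192 ± 20.5 and 1165 ± 60.1 (SD, n = 3). On the log2 scale EFV over control was -0.05 (standard error 0.05). Without EFV library 2 it was -0.10, and Rom1 was then past the limits of the study, with an adjusted p of 0.998 in edgeR.

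Prph2 transcripts outnumbered those of Rom1 in every library. The ratio of their FPKM was 1.878, 1.765 and 1.762 in control libraries 1 to 3 and 1.937, 1.813 and 1.988 in EFV libraries 1 to 3. The log2 ratio was 0.09 higher in EFV-treated mice, with an overlap of the groups and a two-sided exact permutation p of 0.2 (0.6 after BH adjustment over the 6 ratios tested); 3 libraries against 3 cannot go below a p of 0.1. Across the 6 libraries the log2 abundance of Prph2 did not follow that of Rom1 (Pearson r of -0.05).

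The 250 bases before the transcription start of both rim genes are shown because the genes share a structure and a high level, and their upstream sequences could be compared directly. They are from RefSeq on GRCm38.p6, the assembly of mm10, 5′ to 3′ on the strand of the gene, and capitals mark the letters TAATC or, on the other strand, GATTA, the core that the photoreceptor homeodomain factors Crx and Otx2 prefer.
Prph2, chr17:46910228-46910477, plus strand: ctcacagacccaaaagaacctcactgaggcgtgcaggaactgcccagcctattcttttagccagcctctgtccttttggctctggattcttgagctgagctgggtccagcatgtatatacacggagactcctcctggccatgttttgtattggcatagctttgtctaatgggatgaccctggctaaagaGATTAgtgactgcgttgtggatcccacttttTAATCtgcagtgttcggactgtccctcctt
Rom1, chr19:8929357-8929606, minus strand: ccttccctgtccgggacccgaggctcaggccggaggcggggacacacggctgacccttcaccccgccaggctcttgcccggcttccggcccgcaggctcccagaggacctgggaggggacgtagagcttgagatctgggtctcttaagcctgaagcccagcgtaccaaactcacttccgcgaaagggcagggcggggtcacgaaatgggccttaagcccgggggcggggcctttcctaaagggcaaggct

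The upstream sequences of the pair differed in composition, with 49.6% G and C for Prph2 and 66.8% for Rom1. Windows were found for 8 of the 9 genes (2 for Prom1, and none for Rp1). TAATC or GATTA was present for 5 of these 8 genes (Prph2, Prom1, Prcd, Impg1 and Impg2), and in 19.8% of the 32851 windows of the table. The Prom1 match lay in 1 of its 2 windows. The longer form TAATCC (or GGATTA) was in none of the windows of the 8 genes and in 6.25% of all windows, and TGCTGA (or TCAGCA), a part of the site of the rod factor Nrl, was in none and in 16.1%. The shorter core was searched after the longer form had given no match, and TAATC is contained in TAATCC. A match is a description of the letters only.

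Prom1 and Cdhr1 encode proteins at the edge of newly forming discs. Prom1 (Entrez 19126, chromosome 5 from 43993621 to 44102047) encodes prominin-1, a cholesterol-binding membrane protein of evaginating discs. Its FPKM was 160.88, 162.34 and 167.21 in control libraries 1 to 3 and 160.63, 174.24 and 153.91 in EFV libraries 1 to 3. EFV library 2 was the highest and EFV library 3 the lowest of the 6, and the means were 163 ± 3.31 and 163 ± 10.4 (SD, n = 3). In the counts the log2 fold change was -0.02 (standard error 0.06).

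Cdhr1 (Entrez 170677, chromosome 14 from 37077849 to 37098347) encodes a photoreceptor cadherin that binds prominin-1. It had 326.61, 356.37 and 341.72 FPKM in control libraries 1 to 3 and 351.46, 367.16 and 310.89 in EFV libraries 1 to 3. Again EFV library 2 was highest and EFV library 3 lowest, and the means were 342 ± 14.9 and 343 ± 29.0 (SD, n = 3). For Cdhr1 EFV over control was -0.01 on the log2 scale (standard error 0.07), which turned to 0.0060 with total counts for scaling and to 0.06 with rod markers.

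The ratio of Prom1 to Cdhr1 was 0.4926, 0.4555 and 0.4893 in control libraries 1 to 3 and 0.457, 0.4746 and 0.4951 in EFV libraries 1 to 3. The log2 ratio differed by -0.01 between the groups (two-sided exact permutation p of 1.0). Both genes varied together across the libraries, with a Pearson r of 0.86 over the 6 libraries.

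Prcd (Entrez 100038570, chromosome 11 from 116653889 to 116668389) encodes a small protein of the disc membrane. Its FPKM was 269.86, 205.98 and 286.03 in control libraries 1 to 3 and 246.49, 257.71 and 306.70 in EFV libraries 1 to 3. Control library 2 was the lowest and EFV library 3 the highest, the reverse of what most of the other genes showed in EFV library 3. The means were 254 ± 42.3 and 270.3 ± 32.0 (SD, n = 3), and the log2 fold change in the counts was 0.02 (standard error 0.08). It was -0.06 without control library 2 and -0.05 without EFV library 3.

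Prcd was the gene whose FPKM depended most on the transcript model. The files assign it 5 transcripts, 4 of them found by the sequencing provider and absent from RefSeq, and the mean transcript length used for its FPKM varied between libraries from 694.32 to 798.49 bases, a range of 14.3%. For the other 8 genes that range was 0.911% or less. The coefficient of variation of Prcd in control was 16.7% in FPKM and 9.49% in CPM, the counts scaled to library totals adjusted by TMM and not to length, and in EFV-treated mice 11.8% and 7.99%. The RefSeq interval of Prcd shares 616 bases with that of the neighbouring gene Cygb, which had 3283 to 3502 counts per library against 3575 to 4707 for Prcd. Whether the counting used strand is not given in the sources used here, so the division of reads between these 2 genes is uncertain.

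Impg1 and Impg2 encode the proteoglycans of the interphotoreceptor matrix, which bind hyaluronan around the cones and rods. Impg1 (Entrez 63859, chromosome 9 from 80312773 to 80465654) is secreted. It had 124.09, 137.02 and 126.66 FPKM in control libraries 1 to 3 and 132.38, 136.34 and 113.34 in EFV libraries 1 to 3. EFV library 3 was the lowest and EFV libraries 1 and 2 lay within the control range, with means of 129 ± 6.84 and 127 ± 12.3 (SD, n = 3). EFV over control was -0.04 on the log2 scale (standard error 0.08), and 0.04 without EFV library 3.

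Impg2 (Entrez 224224, chromosome 16 from 56203839 to 56273753) spans the membrane of the photoreceptor. Its FPKM was 56.82, 50.51 and 62.48 in control libraries 1 to 3 and 66.57, 66.10 and 54.16 in EFV libraries 1 to 3. EFV libraries 1 and 2 were the 2 highest of the 6, whereas EFV library 3 lay among the control libraries. The means were 56.6 ± 5.99 and 62.3 ± 7.03 (SD, n = 3). The log2 fold change of 0.12 (standard error 0.10) was the largest of the 9 genes and did not pass in edgeR (unadjusted p of 0.233). It was 0.22 without EFV library 3, where Impg2 was past the limits of the study (adjusted p of 0.998 in edgeR), and with each library left out it stayed above 0, between 0.05 and 0.22. With 8231 to 11327 counts per library its counting error was 0.999%, and the coefficients of variation between pools were 10.6% in control and 11.3% in EFV-treated mice.

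The upstream sequences of the matrix pair are given in the same way as those of the rim pair, with the same letters in capitals, because both carry them close to the start. The start used in the table lies inside the gene interval given above for both.
Impg1, chr9:80465439-80465688, minus strand: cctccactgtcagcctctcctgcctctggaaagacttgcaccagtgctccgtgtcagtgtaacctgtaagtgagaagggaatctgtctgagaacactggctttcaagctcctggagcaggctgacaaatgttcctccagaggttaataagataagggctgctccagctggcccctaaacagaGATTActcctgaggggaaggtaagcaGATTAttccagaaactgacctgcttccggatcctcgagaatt
Impg2, chr16:56204063-56204312, plus strand: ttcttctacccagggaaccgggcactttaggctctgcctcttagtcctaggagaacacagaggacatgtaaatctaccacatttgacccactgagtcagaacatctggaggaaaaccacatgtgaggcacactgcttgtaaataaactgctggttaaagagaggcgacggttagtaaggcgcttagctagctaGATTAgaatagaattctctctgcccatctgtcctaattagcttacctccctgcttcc

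The balance of the 2 proteoglycans was set apart by a single library. The ratio of Impg1 to Impg2 was 2.184, 2.713 and 2.027 in control libraries 1 to 3 and 1.989, 2.063 and 2.093 in EFV libraries 1 to 3. Control library 2 had the highest ratio, since it was the lowest of the 6 for Impg2 and the highest for Impg1, and the other 5 lay between 1.989 and 2.184. The log2 ratio was 0.16 lower in EFV-treated mice (EFV minus control of -0.16), with overlapping groups and a two-sided exact permutation p of 0.3 (0.6 adjusted over the 6 ratios). It was -0.04 without control library 2 (exact permutation p of 0.5) and -0.25 without control library 3 (exact permutation p of 0.1). Control library 2 was also the library with the lowest RPE markers, and the part of this in the ratio was not tested.

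Rp1 and Fscn2 encode cytoskeletal proteins of photoreceptors. Rp1 (Entrez 19888, chromosome 1 from 4115673 to 4409266) encodes a microtubule-binding protein of the axoneme that keeps discs stacked and aligned. Its FPKM was 238.57, 251.88 and 212.67 in control libraries 1 to 3 and 251.11, 246.63 and 222.90 in EFV libraries 1 to 3. Control library 3 and EFV library 3 were the lowest of their groups, and the means were 234 ± 19.9 and 240 ± 15.2 (SD, n = 3). EFV over control was 0.02 on the log2 scale (standard error 0.07), and between -0.05 and 0.08 with each library left out.

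Fscn2 (Entrez 238021, chromosome 11 from 120360165 to 120368173) encodes a fascin that bundles actin filaments in photoreceptors. Its range over the libraries was the narrowest of the 9 after Prph2, with 75.94, 77.47 and 78.31 FPKM in control libraries 1 to 3 and 77.58, 81.91 and 79.85 in EFV libraries 1 to 3. EFV libraries 2 and 3 were above all control libraries and EFV library 1 was within their range, and the means were 77.2 ± 1.2 and 79.8 ± 2.17 (SD, n = 3). On the log2 scale EFV over control was 0.03 (standard error 0.04, unadjusted p of 0.509 in edgeR), and with each library left out it lay between 0.0014, without EFV library 2, and 0.05. Its counting error of 1.78% was near the spread between control pools, a coefficient of variation of 1.56% in FPKM and 2.17% in CPM. The ratio of Rp1 to Fscn2 ranged from 2.716 in control library 3 to 3.251 in control library 2, and the log2 ratio differed by -0.01 between the groups (two-sided exact permutation p of 0.9).

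Scaling to rod genes changed the call of 1 of the 9 genes. When the summed counts of the 10 rod markers were used, the log2 fold change of Prph2 became 0.10 and passed the limits of the study (adjusted p of 0.76 in edgeR), while the median of all genes moved from 0.00 to 0.07.

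**Figure D3:**
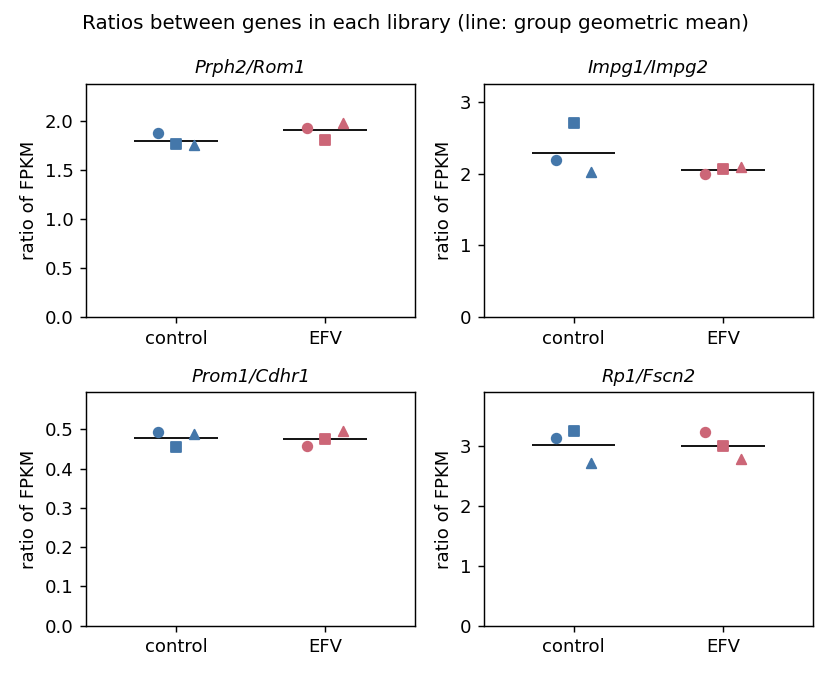
Ratio of the FPKM of 2 genes in each library for 4 pairs of partners (vertical axes from 0), control in blue and EFV in red, with circles, squares and triangles for libraries 1, 2 and 3 and a line at the geometric mean of each group. The groups overlap in all 4 panels, and control library 2 (square) is the highest for Impg1/Impg2, at 2.713.

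Several of the 9 genes were high or low in the same library. EFV library 3 was the lowest of the EFV libraries for 7 of the 9 genes, and EFV library 2 the highest for 7 of the 9. Over all 6 libraries EFV library 2 was the highest for 6 genes and EFV library 3 the lowest for 4. The median deviation of the 9 genes from their own mean, in log2 CPM, was -0.11 in EFV library 3 and 0.07 in EFV library 2, and between -0.03 and 0.01 in the other 4. EFV library 3 also had the lowest sum of rod markers, 26530 FPKM, whereas EFV library 2 had 28160, within the control range. The sums did not follow the deviations in all libraries. EFV library 1, with 27230, and control library 2, with the highest sum of 28810, both had a median deviation of 0.01.

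**Figure D4:**
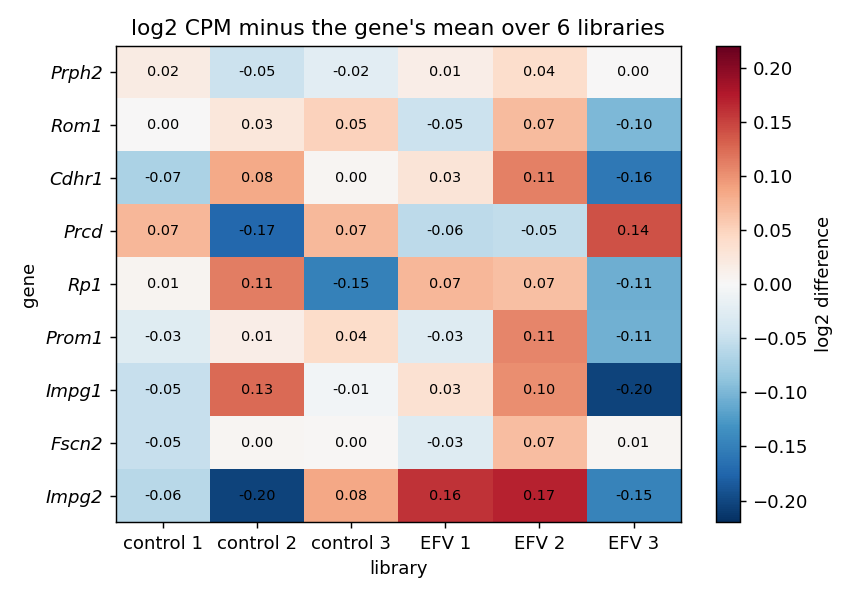
Log2 CPM of each gene (rows, by mean FPKM) in each library (columns) minus the mean of that gene over the 6 libraries; red is above and blue below that mean. EFV 3 is below for most genes and above for Prcd, EFV 2 is above for 8 of 9 genes, and control 2 holds the lowest value of Prph2, Prcd and Impg2.

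Over the 36 pairs of genes the median Pearson r of log2 CPM was 0.29 across the 6 libraries, a description that rests on libraries shared by all pairs. The closest pairs were Cdhr1 with Impg1 (0.98), Rom1 with Prom1 (0.95), Prom1 with Cdhr1 (0.86) and Prom1 with Impg1 (0.80). Of the 10 pairs with a negative r, 7 were pairs with Prcd, the lowest being Prcd with Impg1 (-0.90), and the other 3 were Prph2 with Rom1, Cdhr1 and Impg1.

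The libraries also differed slightly in how abundance changed with transcript length. Per doubling of length, log2 CPM changed by 0.0142 in control library 2 and by 0.0177 in EFV libraries 1 and 2, and by -0.0233, -0.0104 and -0.0159 in control libraries 1 and 3 and EFV library 3. Prcd, the shortest at 730.8 bases on average, deviated with the sign opposite to this slope in 6 of 6 libraries. The slope gives that sign for short transcripts, but Rom1 and Fscn2, the next shortest, showed it in 3 of 6 libraries each. Whether the slope accounts for the pattern of Prcd was not tested. Impg1, at 3484 bases, had the sign of the slope in 6 of 6. After the trend of each library was removed, the range of Prcd over the 6 libraries was 0.26 in place of 0.31 on the log2 scale, that of Impg1 0.32 in place of 0.33 and that of Cdhr1 0.24 in place of 0.27. The ranges of Rom1 and Fscn2 were larger after the removal, 0.21 in place of 0.17 and 0.16 in place of 0.12.

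The median spread of the 9 genes between pools was below that of all genes tested in both groups. All 9 ranked within the first 965 genes by level, and no set of genes of like level was compared. The median coefficient of variation of FPKM was 4.36% for the 9 genes and 6.36% for all genes tested in control, and 6.36% and 6.73% in EFV-treated mice. The lowest was that of Prph2 in EFV-treated mice, 0.378%, and the highest that of Prcd in control, 16.7%.

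The genes whose log2 CPM was most like that of Prph2 over the 6 libraries were Bbs5 (Pearson r of 0.99), Foxo6 (0.98) and Fgf9 (0.98). They were the first of 15536 genes ranked, and 87 genes had an r above 0.9. Because they were picked for the highest r among so many genes over 6 libraries, these values are no evidence of a link with Prph2.

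Other genes of the same structures were read from the same fit. In the list labelled disc membrane, which also holds genes of other membrane of the outer segment, 0 of 10 genes were past the limits of the study in either direction. The median log2 fold change was 0.01, against 0.00 for all genes tested. Among its abundant genes were Cngb1, with 350 ± 3.76 FPKM in control and 352 ± 9.19 in EFV-treated mice (SD, n = 3), and Cnga1, with 295 ± 11.7 and 299 ± 7.36, which encode the subunits of the rod channel gated by cyclic GMP. These levels were close to that of Cdhr1.

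In the list of axoneme and disc assembly genes 1 of 12 was past the limits, higher in EFV-treated mice, where 1.47% of all genes tested were, and the median was 0.01. This gene was Rpgr, which encodes a regulator of transport through the connecting cilium. It had 13.34, 13.81 and 12.39 FPKM in control libraries 1 to 3 and 14.26, 14.29 and 14.14 in EFV libraries 1 to 3, so the groups did not overlap. Its log2 fold change was 0.12 (standard error 0.05, unadjusted p of 0.0296 and adjusted p of 0.999 in edgeR). It was not past the limits without control library 1 (0.12), control library 3 (0.08), EFV library 1 (0.11) or EFV library 3 (0.12). The same held in DESeq2 (0.12) and limma (0.11). Without control libraries 2 and 3 together, a fit that leaves 1 control library, its log2 fold change was 0.11. The most abundant of the list were Unc119 (1447 ± 43.8 FPKM in control and 1482 ± 54.2 in EFV-treated mice), Tulp1 (616 ± 20.7 and 592 ± 22.2) and Arl3 (183 ± 1.83 and 181 ± 12.2; SD, n = 3 for all), which take part in transport of lipid-bound and membrane proteins to the outer segment.

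In the list of other matrix genes 7 of 9 had enough counts to be tested and 0 were past the limits, with a median of 0.04. That median was the value of Vcan, whose standard error was 0.34. Vcan, Has3 and Hapln1 were rare, with means of 0.558, 0.583 and 0.422 FPKM, so the median rests in part on genes of few counts. Rbp3, which encodes the retinoid-binding protein of the interphotoreceptor space, was the most abundant with 1068 ± 48.2 FPKM in control and 1030 ± 64.9 in EFV-treated mice (SD, n = 3), and lay above Impg1 and Impg2 in level. EFV over control was -0.07 for Rbp3 on the log2 scale (standard error 0.06), and without EFV library 2 it was -0.13 and past the limits. Egflam, which encodes pikachurin, had 44.6 ± 0.907 FPKM in control and 45.5 ± 3.84 in EFV-treated mice (SD, n = 3). The median was 0.18 without control library 3, the library with the lens RNA. In that library Cd44, a hyaluronan receptor, had 3.32 FPKM, against 1.53 to 2.03 in the other 5.

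The family relatives of the 9 genes were mostly rare. Rp1l1 had 75.3 ± 1.32 FPKM in control and 76.7 ± 7.77 in EFV-treated mice (SD, n = 3) and Fscn1 39.4 ± 0.862 and 40.5 ± 1.29, below Rp1 and Fscn2 in every group mean. The others found in the files (Prom2, Fscn3, Cdhr2, Cdhr3 and Cdhr5) had a mean of 0.143 FPKM or less in both groups. Of the 3 relatives with enough counts (Rp1l1, Fscn1 and Cdhr3), 0 were past the limits, and the median was 0.02.

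Among 9 transcription factors of photoreceptors 1 was past the limits, lower in EFV-treated mice, where 1.54% of all genes tested were, and the median was -0.01. Esrrb, a nuclear receptor of rods, is named here because it was that gene, after its values were seen. It had 121.19, 147.61 and 120.01 FPKM in control libraries 1 to 3 and 105.52, 112.60 and 111.76 in EFV libraries 1 to 3, and EFV over control was -0.25 on the log2 scale (standard error 0.08, unadjusted p of 0.0139 and adjusted p of 0.999 in edgeR). The groups did not overlap, and control library 2 was the highest. With each single library left out the value lay between -0.31 (without control library 3) and -0.14 (without control library 2), and Esrrb stayed past the limits. It was also past them in DESeq2 (-0.25) and limma (-0.23). Without control libraries 2 and 3 together the value was -0.15. That fit leaves 1 control library, so only its size is given and no call is made from it. Crx, with 487 ± 23.9 FPKM in control and 473 ± 16.9 in EFV-treated mice, and Nrl, with 589 ± 29.3 and 617 ± 17.5 (SD, n = 3), were not past the limits.

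**Figure D5:**
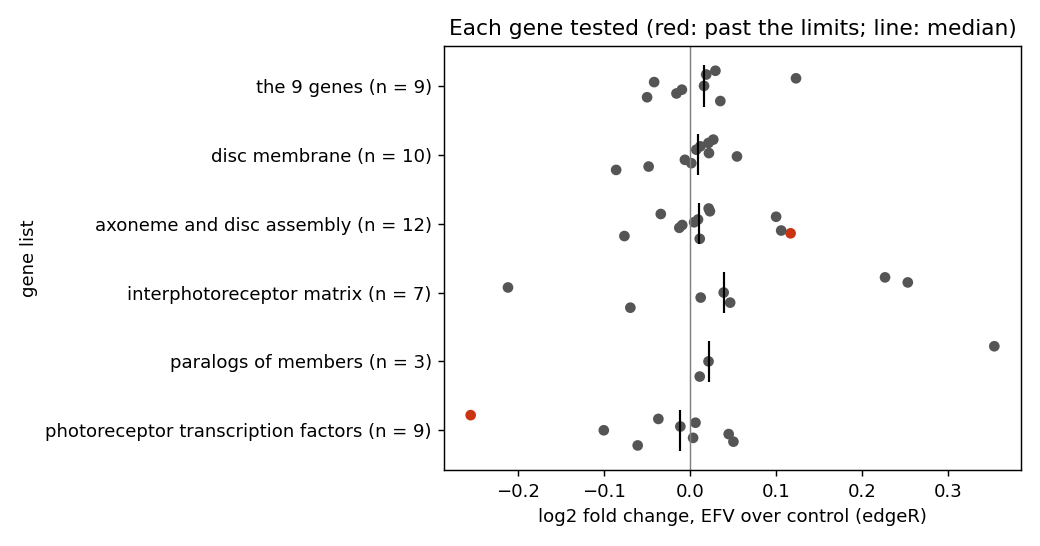
Log2 fold change (horizontal axis, edgeR, EFV over control) of every gene tested among the 9 genes and the 5 lists of related genes (rows), with red for genes past the limits of the study and a line at the median of each row. The medians lie between -0.01 and 0.04, and Rpgr and Esrrb are the only red points.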

How the data were processed

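RNA was measured in 6 libraries, 3 control and 3 EFV-treated, each from a pool of mice. Per the labels and the study's methods, the authors aligned filtered reads to mm10 with Bowtie2 2.2.5 (HISAT2 2.0.4 is also named in the submitters' processing notes) and estimated expected counts per gene with RSEM 1.2.12. The deposited expected counts are not normalized. The deposited FPKM values are divided by transcript length and library total and are rounded, the smallest listed being 0.01, and a gene absent from a file was taken as 0. The transcript lengths deposited beside them, in bases, are weighted by isoform. The annotation release and strandedness are not given in the sources used here.

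The 9 genes, the gene lists and the tests were chosen with earlier results of these data known. Rounded expected counts were tested with edgeR 4.0.16 (R 4.3.3; quasi-likelihood, trimmed mean of M values (TMM) scaling, factors 0.984 to 1.014), where a gene needed 10 counts or more in 3 or more libraries, with BH adjustment over all of them. Fold changes are EFV over control, and 95% intervals come from that fit. The limits of the study (fold change of 1.07 and p of 0.05) were set for a Poisson test there and applied to edgeR here. Ratios between genes were compared by exact two-sided permutation (SciPy 1.17.1), with BH over 6 ratios. Depth was even (23455167 to 24590278 counts). Counting error, taken from the mean count of each gene over the libraries, was 1.78% or less for each of the 9 genes. Named were the 9 genes, the 3 most abundant genes and those past the limits in the 4 lists of related structures, the 3 genes most correlated with Prph2 and the highest lens gene. Esrrb, Kcnj13, Cd44, Crx, Nrl, Vcan, Has3 and Hapln1 were named after their values were seen. Alternatives were RLE, upper quartile, total count and rod marker scaling, no count filter, DESeq2 1.42.0, limma 3.58.1 on log2(FPKM + 0.1) and log2(FPKM + 1), a Poisson model, a block for the replicate number, and the removal of each library. A transcript length correction and a fit without control libraries 2 and 3, which leaves 1 control library, were added after the data were seen. The edgeR, DESeq2, Poisson and limma fits were tested on simulated data, limma on CPM in place of FPKM. The permutation test and the other alternatives were not. Pcare was matched through its Entrez identifier, and Cdhr4 was in none of the files. Some genes that this rule names, and 2 of the 6 ratios, are not reported here.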

Additional observations from a re-analysis of the deposited data

How the results depend on the processing

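Of the 171 log2 fold changes of the 9 genes under the 19 alternatives, 23 had the other sign, in 7 genes; Impg2 and Fscn2 kept theirs in all 19. At an adjusted p of 0.05 the Poisson model called 5 of the 9 and every other alternative 0. Past the limits of the study were 1 under rod marker scaling (Prph2), 1 in the Poisson model (Impg2) and between 0 and 1 with 1 library left out (Rom1 without EFV replicate 2, Impg2 without EFV replicate 3).

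The sign turned under rod marker scaling for Rom1 (0.0168), Prom1 (0.0504), Cdhr1 (0.0573) and Impg1 (0.0249). For Cdhr1 it also turned with total counts (0.0060) and in limma with a pseudocount of 0.1, filtered or not, or of 1 (0.0041 in all 3). Without control replicates 2 and 3 together, Prph2 was -0.0018, Prom1 0.0187, Cdhr1 0.066, Prcd -0.0635, Impg1 0.0328 and Rbp3 0.0148. With 1 library left out, the range was 0.019 to 0.0534 for Prph2, -0.1004 to -0.0135 for Rom1, 0.0014 to 0.0509 for Fscn2, -0.0773 to 0.0319 for Prom1, -0.0706 to 0.0623 for Cdhr1, -0.062 to 0.0572 for Prcd, -0.1064 to 0.0437 for Impg1, -0.0479 to 0.0803 for Rp1, 0.0577 to 0.1242 for the log2 ratio of Prph2 to Rom1, -0.2495 to -0.0393 for that of Impg1 to Impg2, -0.0467 to 0.0175 for that of Prom1 to Cdhr1 and -0.0876 to 0.0444 for that of Rp1 to Fscn2.

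Rod marker scaling gave list medians of 0.0779 (disc membrane), 0.077 (axoneme and disc assembly), 0.0912 (family relatives) and 0.058 (transcription factors). With 1 library left out, the median of the matrix list ranged from -0.0145 to 0.1847 and that of the relatives from 0.0083 to 0.0972.

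Among all genes, those at an adjusted p of 0.05 were 11 in DESeq2, 2042 in the Poisson model, 0 in limma, 3 without control replicates 2 and 3 and between 0 and 1 with 1 library left out. Those past the limits were 777 under rod marker scaling, 269 in DESeq2 and 2305 in the Poisson model, against 467 in the analysis reported. These 467 were 239 lower and 228 higher, against 159 and 288 with total counts, 76 and 701 with rod marker scaling and 192 and 297 in limma. The cause of these changes was not tested.

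With the replicate number as a block, 0 of the 9 genes were past the limits, and over all genes 270 were lower and 244 higher. Deviations of libraries with the same number correlated at 0.125, 0.083 and 0.099, each higher than with the other numbers, but not all above 0.1, so the numbers were not taken as a pairing.

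Counting error was below the spread of FPKM between pools in both groups for 8 of the 9 genes. For Fscn2 it was 1.78%, above the control coefficient of variation of 1.56% in FPKM but below that of 2.17% in CPM. Whether depth limits that gene thus depends on the scale. With 3 pools in each group an exact permutation test could not go below a p of 0.1.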
